A study of Mus musculus with 9 samples.

Results

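The genes described here encode, in the nucleus, the subunits of the mitochondrial respiratory chain and a group of factors that assemble its first complex. They were taken by symbol, as names that start with Nduf, Uqcr, Cox4 to Cox8 or Atp5 together with Sdha, Sdhb, Sdhc and Sdhd. Of 55367 gene symbols in the count tables, 111 carried such a name. Of these, 14 were left out because the symbol contains -ps, and 10 because they averaged below 1 CPM (reads scaled to the size of the library) over the 9 libraries. The remaining 87 genes were the members, and all 87 passed the filter on low counts that left 13707 genes to test. Cox6a2, at 1.41 CPM, was the lowest member, and Cox7a1, at 0.472 CPM, was the highest of the genes left out for low counts. Among the genes left out by name was Ndufb1-ps, at 79.9 CPM.

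RNA was measured by poly(A) sequencing in monocytes of adult mice given a buffer (control), platelets of adult animals or platelets labelled P7 for 4 h, P7 being the usual abbreviation of postnatal day 7. Each of the 3 groups held 3 libraries, and all monocytes were washed before RNA was taken. The labels give neither strain nor source of the monocytes, nor whether replicates came from separate animals or cultures, so a p-value here covers the spread between these libraries alone, which may be technical. Levels below are normalised CPM in replicates 1, 2 and 3 of a group. Fold changes are log2 values ± SE. P was adjusted over all 13707 genes in the quasi-likelihood test of edgeR, and a gene is said to rise or fall where that p was below 0.05.

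The respiratory chain passes electrons from NADH (complex I) and succinate (complex II) through ubiquinone to complex III, cytochrome c and complex IV, which reduces oxygen. The proton gradient that complexes I, III and IV build drives ATP synthase, complex V. Most subunits are encoded in the nucleus and imported, while mitochondrial DNA encodes a small hydrophobic core, so that each complex except complex II is built from the products of both genomes. In monocytes and macrophages the chain is known to be remodelled when the cells are activated.

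Total counts per library ranged from 29687341 to 37065564. The 8 monocyte markers (among them Csf1r and Ly6c2) held 2.25 to 3.00% of counts in every library. Most of that share was Lyz2, and single markers moved. Against control 4 rose and 0 fell with adult platelets, and 5 rose and 1 fell with P7 platelets. Set against adult platelets, 2 were higher and 3 lower with P7 platelets. Unscaled, Ccr2 was at 2388 to 2909 CPM in control and 1364 to 1899 with P7 platelets. Csf1r was at 2136 to 2246 and 2850 to 3156 CPM. The 13 platelet and megakaryocyte markers held 0.00246 to 0.00278% of counts in control, 0.0570 to 0.0972% with adult platelets and 0.104 to 0.120% with P7 platelets, and 13 of 13 rose in both. Gp6 and Gp1bb were at 0 in all control libraries. The 5 erythroid markers held 0.000881 to 0.00117, 0.0481 to 0.180 and 4.36 to 5.50% of counts. B and plasma cell markers held 0.0514 to 0.0956% of counts in replicate 1 of each group and in adult platelet replicate 3, against 0.0160 to 0.0217% in the other 5 libraries. The 5 neutrophil markers held 0.00403 to 0.00964% of counts in 8 libraries and 0.0187% in adult platelet replicate 3. The 4 dendritic cell markers held 0.00370 to 0.00443% in control, 0.00287 to 0.00543% with adult and 0.00210 to 0.00300% with P7 platelets. The 5 T and NK cell markers stayed at or below 0.000352%, with Ncr1 at 0 in all control and adult platelet libraries. Transcripts of mitochondrial DNA held 1.17 to 1.62% of counts in control, 2.05 to 2.28% with adult platelets and 2.33 to 2.42% with P7 platelets, without overlap. These measures moved with the groups or with single libraries, and their part in the results was not tested. RNA of platelets still bound to monocytes, or of erythroid cells where present, cannot be told apart from monocyte RNA here. Nor can fewer cells of a type be told apart from less RNA per cell.

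Summed over the 87 members, the level was 5903, 5704 and 5564 CPM in the control libraries, 6831, 6019 and 6099 CPM with adult platelets and 6622, 6511 and 6650 CPM with P7 platelets. All 6 platelet libraries lay above all 3 control libraries. Within the adult platelet group, replicate 1 stood apart, and 75 of the 87 members were highest of their group in that library. Control replicate 1 was likewise the highest of its group for 65 members. The order was not found in unscaled counts, of which the members took 0.593 to 0.649% of unscaled counts in control, 0.612 to 0.708% with adult platelets and 0.582 to 0.598% with P7 platelets.

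**Figure D1:**
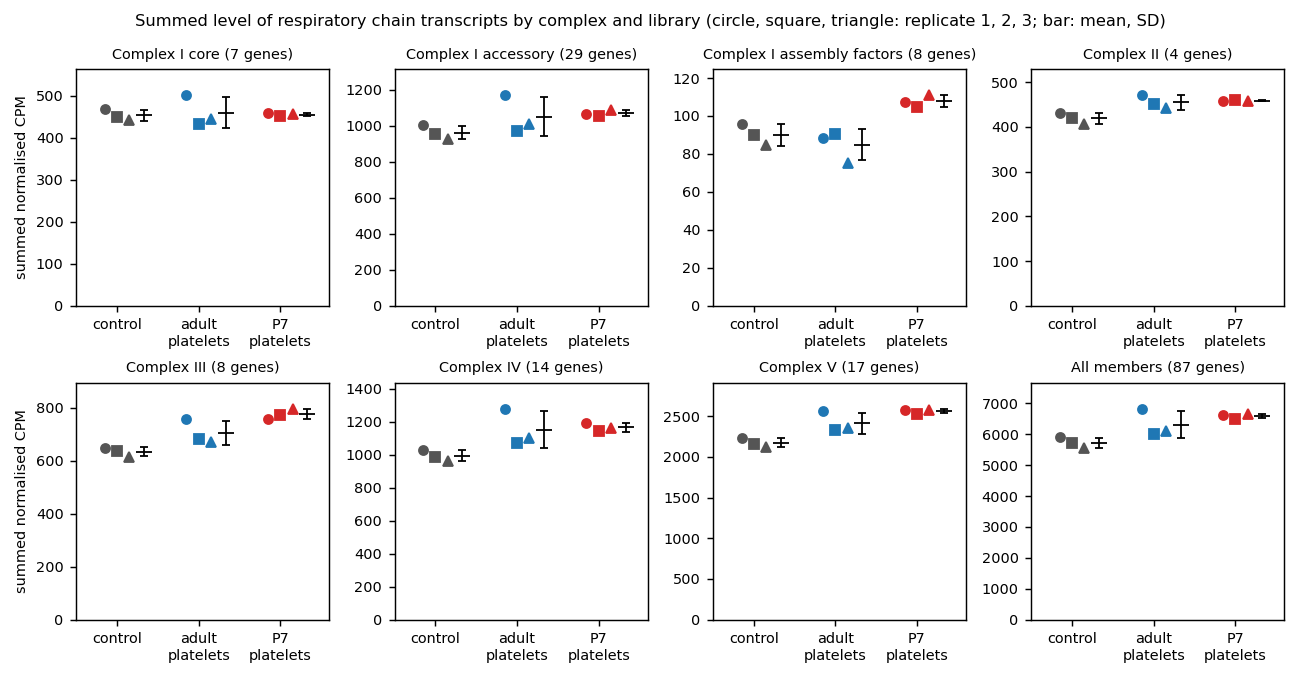
Summed TMM-normalised CPM of the members of each complex, and of all 87 members, in each of the 9 libraries (y axis, CPM, from 0; x axis, group; symbols mark replicates; bars give mean and SD over n = 3). The platelet libraries lie above the control libraries for complexes II, III, IV and V, the adult platelet replicate 1 is the highest of its group in most panels, and the share of unscaled counts taken by all 87 members together was 0.582 to 0.598% with P7 platelets and 0.593 to 0.649% in control.

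With P7 platelets, 48 of the 87 members rose and 3 fell against control, while 29.9% of all 13707 genes tested rose and 29.3% fell (59.2% in either direction). The median member changed by 0.26 and the median gene tested by -0.014. The changes were small, and Uqcrq was the 1 member that both passed the test and changed by at least 1.5-fold. Of all 13707 genes tested, 4093 did so. For 61 members every P7 library lay above every control library, and for 7 every one lay below, against 34.5 and 34.7% of all genes tested. With the 13 platelet and 5 erythroid markers and the genes of mitochondrial DNA taken out, 49 members rose and 3 fell. Of all genes tested 30.0 and 29.4% did so. Member reads that came from platelets or erythroid cells stay in that fit, so it cannot show what they add. Without adult platelet replicate 1, which is in neither of these groups but in the same fit and its filter, 5 members fell (5.75%, beside 29.8% of all genes tested).

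With adult platelets, 20 of 87 members rose and 1 fell against the same control libraries, beside 14.3% of all genes tested that rose and 12.0% that fell (26.4% in either direction). The median member changed by 0.17, the median gene tested by -0.0022. In 35 members the adult platelet libraries all lay above the control libraries and in 1 below, against 21.8 and 20.9% of all genes tested. This count rested on few libraries: 5 members rose without control replicate 2 and 6 without control replicate 3, and the 1 fall was lost without any 1 of the control libraries, without adult platelet replicate 3 or without any 1 of the P7 libraries, while 2 fell without adult platelet replicate 1. As shares, 5.75% rose without control replicate 2 and 6.90% without control replicate 3, beside 7.99 and 8.58% of all genes tested. Of the 18 named genes called in this comparison, 6 kept the call whichever library was left out. For P7 platelets against control it was 26 of 30. The named genes were in part picked for the smallest p in these data, and include AA467197 and Acod1, which are not members. Their kept calls therefore do not measure how stable the calls of all members were.

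The direction depended on how the libraries were scaled. TMM factors were 1.07 to 1.10 in control, 1.02 to 1.05 with adult platelets and 0.882 to 0.903 with P7 platelets. Scaled to total counts instead, which moved the median of all genes with P7 platelets to -0.29, 3 members rose and 22 fell (3.45 and 25.3%, beside 16.0 and 49.9% of all genes tested) and their median was -0.021. With upper-quartile factors, which moved the median of all genes to -0.12, 30 rose and 10 fell (34.5 and 11.5%, beside 23.9 and 36.6% of all genes tested) and their median was 0.15. With adult platelets total counts gave 6 members that rose and 1 that fell (6.90 and 1.15%, beside 9.42 and 16.6% of all genes tested). A scaling factor shifts all genes of a library alike, so the distance between the median member and the median gene, 0.27 for P7 and 0.17 for adult platelets, is nearly the same under any scaling by construction. The changes below are therefore changes relative to the typical gene, and each value is under TMM unless another scaling is named.

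**Figure D2:**
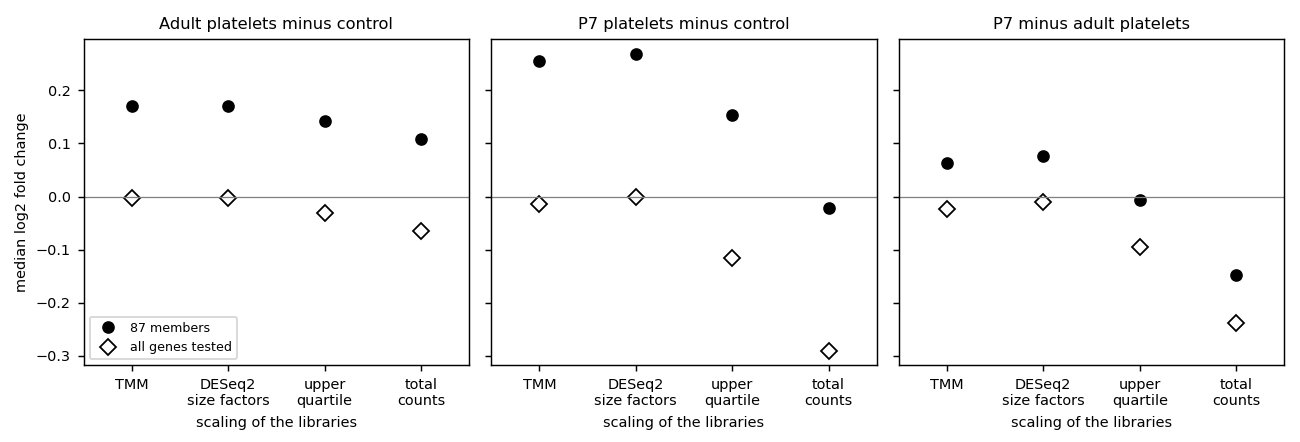
Median log2 fold change (y axis) of the 87 members (filled circles) and of all genes tested (open diamonds) under 4 scalings of the libraries (x axis), in the 3 comparisons (panels). A scaling moves members and all genes tested together by construction, and with P7 platelets against control their median falls from 0.26 with TMM to -0.021 with total counts.

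**Figure D3:**
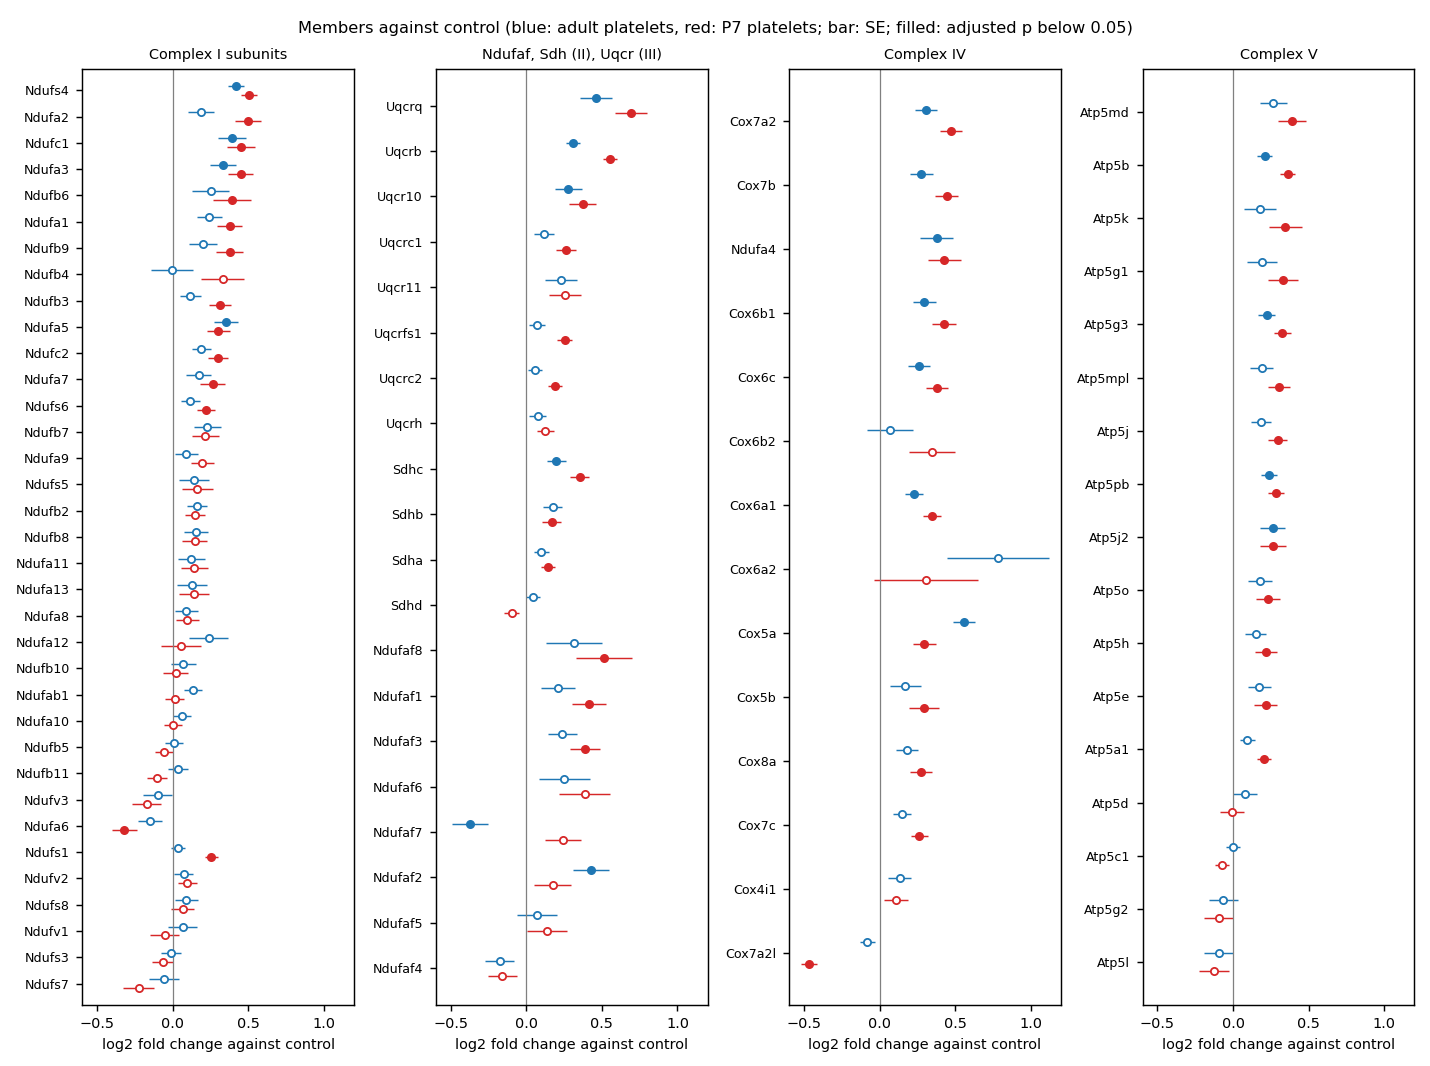
Log2 fold change against control (x axis) of the members (y axis) by complex, 1 of them not plotted, with adult platelets in blue and P7 platelets in red, bars giving the SE and filled points an adjusted p below 0.05, under TMM. Most members lie to the right of 0 while Cox7a2l and Ndufa6 fell with P7 platelets. Total counts as the scaling gave 22 members that fell with P7 platelets and 3 that rose (25.3 and 3.45%, beside 49.9 and 16.0% of all genes tested).

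Complex I takes electrons from NADH. Its 7 nuclear-encoded core subunits, which carry the flavin and iron-sulphur clusters or line the path to ubiquinone, did not move as a group: with P7 platelets 1 rose and 1 fell (0 rose and 6 fell with total counts), and with adult platelets none of the 7 was called. As shares, 14.3% rose and 14.3% fell with P7 platelets, beside 29.9 and 29.3% of all genes tested. Total counts gave 0 and 85.7%, beside 16.0 and 49.9%. The summed level of the core subunits, as mean ± SD of n = 3, was 453 ± 12.7 CPM in control, 460 ± 37.2 in the adult platelet group and 455 ± 4.18 in the P7 group. Ndufs1, the largest core subunit, was at 85.4, 84.2 and 87.6 CPM in control, 87.9, 90.9 and 84.5 with adult platelets and 102, 101 and 104 with P7 platelets. The P7 libraries lay above all 6 others, by 0.26 ± 0.04 against control (adjusted p = 8.05e-04) and 0.22 ± 0.04 against adult platelets (adjusted p = 0.00358).

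Neither the flavin-bearing Ndufv1 nor its neighbour Ndufv2 was called. Ndufv1 was at 77.1, 72.2 and 70.0 CPM in control, 89.0, 66.5 and 73.9 with adult platelets and 73.7, 68.1 and 69.5 with P7 platelets, with overlap between all groups. Ndufv2 was at 64.4, 61.8 and 63.0 CPM, then 72.9, 61.6 and 64.4 CPM, and 68.2, 66.0 and 68.0 CPM in the same order. The iron-sulphur subunits Ndufs7 and Ndufs8 had changes of -0.23 ± 0.10 (adjusted p = 0.0824) and 0.07 ± 0.08 (adjusted p = 0.486) with P7 platelets, and both overlapped control with adult platelets.

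Around this core sit the accessory subunits, which do not carry out the redox chemistry. Of 29, 12 rose and 1 fell with P7 platelets (9 and 4 with upper-quartile factors, 1 and 7 with total counts), and 4 rose and 0 fell with adult platelets. As shares, 41.4% rose with P7 platelets beside 29.9% of all genes tested, and 13.8% with adult platelets beside 14.3%. The share that fell with P7 platelets was 3.45%, beside 29.3%. Upper-quartile factors gave 31.0 and 13.8% that rose and fell, beside 23.9 and 36.6%, and total counts 3.45 and 24.1%, beside 16.0 and 49.9%. Ndufs4, an accessory subunit on the matrix arm that is needed for a stable complex, was at 34.1, 32.3 and 34.6 CPM in control, 47.7, 44.2 and 43.0 with adult platelets and 48.4, 46.6 and 48.4 with P7 platelets. All 6 platelet libraries lay above control, by 0.42 ± 0.05 with adult (adjusted p = 6.80e-04) and 0.51 ± 0.05 with P7 platelets (adjusted p = 4.12e-05), and both calls held under every alternative run, total counts included. Ndufa2 was at 44.9, 43.1 and 43.0 CPM in control, 57.2, 43.2 and 49.0 with adult platelets and 61.0, 61.6 and 62.6 with P7 platelets. The adult libraries overlapped control, and the P7 libraries lay above both groups, by 0.50 ± 0.09 against control (adjusted p = 9.05e-04).

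Ndufa3 was at 32.7, 30.9 and 29.8 CPM in control, 45.2, 36.4 and 36.0 with adult and 42.5, 42.5 and 42.4 with P7 platelets. It rose in both, by 0.33 ± 0.08 (adjusted p = 0.0194) and 0.45 ± 0.08 (adjusted p = 0.00147), and the first call was lost without control replicate 2 or 3, up to an adjusted p of 0.0764. Ndufc1 rose by 0.39 ± 0.09 (adjusted p = 0.0148, and 0.0643 without control replicate 2) and 0.45 ± 0.09 (adjusted p = 0.00265), and Ndufa5 by 0.35 ± 0.08 (adjusted p = 0.00982) and 0.30 ± 0.08 (adjusted p = 0.00783). In both genes every platelet library lay above every control library. Ndufa6, an accessory subunit of the LYR protein family, went the other way. Its levels were 63.8, 62.0 and 56.9 CPM in control, 59.9, 49.1 and 55.6 with adult platelets and 46.6, 47.6 and 52.1 with P7 platelets. The P7 libraries all lay below control, and the fall of 0.32 ± 0.08 on the log2 scale (adjusted p = 0.00735) was called under every alternative run. With adult platelets Ndufa6 overlapped control (-0.15 ± 0.08, adjusted p = 0.201).

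The 8 members named Ndufaf are assembly factors that help to build complex I and are not part of it. With P7 platelets 3 rose and 0 fell (0 and 1 with total counts), and with adult platelets 1 rose and 1 fell. As shares, 37.5% rose and 0% fell with P7 platelets, beside 29.9 and 29.3% of all genes tested. Total counts gave 0 and 12.5%, beside 16.0 and 49.9%. Under TMM the adult platelet shares were 12.5 and 12.5%, beside 14.3 and 12.0%. Ndufaf7, a mitochondrial methyltransferase, was the member with the largest called difference between the 2 kinds of platelets. It was at 51.9, 46.4 and 46.1 CPM in control, 36.1, 44.7 and 30.7 with adult platelets and 54.3, 57.3 and 59.4 with P7 platelets, 3 groups that did not overlap. The P7 libraries were higher than the adult ones by 0.62 ± 0.12 (adjusted p = 0.00319), a call that held under every alternative run, and were 0.24 ± 0.12 above control (adjusted p = 0.102). The fall of 0.37 ± 0.12 with adult platelets (adjusted p = 0.0454) was lost in 8 of the 9 fits that leave out a library, up to an adjusted p of 0.127 without control replicate 1.

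The other assembly factors that rose were low. Ndufaf1 was at 8.50, 10.3 and 8.97 CPM in control and 12.4, 12.4 and 12.2 with P7 platelets, a rise of 0.42 ± 0.11 (adjusted p = 0.0104). Ndufaf3 was at 11.7, 10.3 and 10.2 CPM against 14.6, 13.2 and 14.3 CPM, a rise of 0.39 ± 0.10 (adjusted p = 0.00654). Both genes had P7 libraries above all control libraries and adult libraries that overlapped control. Ndufaf8 rose by 0.51 ± 0.19 with P7 platelets (adjusted p = 0.0375) although its libraries overlapped control, and its call was lost without control replicate 2 or 3 or P7 replicate 1 or 3, up to an adjusted p of 0.128. Ndufaf2 rose with adult platelets by 0.43 ± 0.12 (adjusted p = 0.0279), from 5.10, 4.41 and 4.18 CPM to 6.13, 5.66 and 6.61 CPM, and lost the call without control replicate 2 or 3 or adult platelet replicate 1 or 3, up to an adjusted p of 0.104.

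Complex II, succinate dehydrogenase, also works in the TCA cycle and is encoded in the nucleus alone. With P7 platelets 3 of its 4 subunits rose (75.0%) and 0 fell, beside 29.9 and 29.3% of all genes tested. Upper-quartile factors gave 1 that rose and 1 that fell (25.0% each), beside 23.9 and 36.6%. Total counts gave 0 that rose and 2 of the 4 that fell, beside 16.0 and 49.9%. With adult platelets under TMM 1 rose (25.0%) and 0 fell, beside 14.3 and 12.0%. Sdhc, which anchors the complex in the membrane, was at 45.8, 43.8 and 42.3 CPM in control, 54.5, 47.6 and 49.4 with adult platelets and 55.0, 55.0 and 58.3 with P7 platelets. These 3 groups did not overlap, with rises of 0.20 ± 0.06 (adjusted p = 0.0383) and 0.35 ± 0.06 (adjusted p = 8.42e-04), and the first was lost in 6 of the 9 fits that leave out a library, up to an adjusted p of 0.134 without control replicate 3. The catalytic flavoprotein Sdha was at 205, 203 and 199 CPM in control, 221, 223 and 206 with adult and 222, 227 and 220 with P7 platelets. Both platelet groups lay above control, and the P7 rise was 0.14 ± 0.05 (adjusted p = 0.0231).

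The iron-sulphur subunit Sdhb was at 93.8, 92.7 and 87.8 CPM in control, 113, 96.9 and 99.8 with adult and 107, 100.1 and 102 with P7 platelets. Its rise with P7 platelets was 0.17 ± 0.06 (adjusted p = 0.0437). The calls of Sdha and Sdhb rested on single libraries: that of Sdha was lost in 3 and that of Sdhb in 7 of the 9 fits that leave out a library, up to adjusted p of 0.0847 and 0.145, both without control replicate 3. Sdhd, the other membrane anchor, was at 85.8, 80.4 and 78.1 CPM in control, 83.6, 83.3 and 85.4 with adult platelets and 73.9, 77.4 and 77.3 with P7 platelets. The P7 libraries were the lowest of the 3 groups, by 0.14 ± 0.05 against adult platelets (adjusted p = 0.0417, lost in 7 of 9 such fits, up to 0.115 without P7 replicate 1) and by 0.10 ± 0.05 against control (adjusted p = 0.114).

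Outside the symbol rule, Acod1 makes itaconate, a metabolite known to inhibit succinate dehydrogenase. It was at 52.4, 26.1 and 40.0 CPM in control, 65.8, 94.8 and 58.7 with adult platelets and 532, 663 and 697 with P7 platelets. The 3 groups did not overlap. Acod1 rose by 4.00 ± 0.28 with P7 platelets (adjusted p = 4.11e-06) and by 0.89 ± 0.25 with adult platelets (adjusted p = 0.0300, and up to 0.0871 without adult platelet replicate 2, control replicate 2 or control replicate 3).

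Complex III passes electrons from ubiquinol to cytochrome c. Of its 8 members, 6 rose with P7 platelets and 3 with adult platelets, and 0 fell in either, and with total counts 2 rose and 1 fell with P7 platelets. As shares, 75.0% rose and 0% fell with P7 platelets, beside 29.9 and 29.3% of all genes tested. Total counts gave 25.0 and 12.5%, beside 16.0 and 49.9%. Under TMM the adult platelet shares were 37.5 and 0%, beside 14.3 and 12.0%. Uqcrb, a small subunit near the ubiquinone site, gave the clearest order of groups: 44.2, 46.9 and 42.7 CPM in control, 55.8, 55.1 and 54.9 with adult platelets and 63.8, 66.1 and 66.4 with P7 platelets. No group overlapped another. Its changes were 0.31 ± 0.05 for adult platelets (adjusted p = 0.00181), 0.55 ± 0.05 for P7 platelets (adjusted p = 1.29e-05) and 0.24 ± 0.05 between them (adjusted p = 0.00309). The changes against control held under every alternative run, and the difference between both kinds of platelets was lost with total counts. Of the 75-base windows of its transcript, 29.1% also occur in transcripts of 3 pseudogenes, so reads may be shared with them.

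Uqcrq, a small membrane subunit of complex III, was at 52.0, 48.8 and 48.0 CPM in control, 80.8, 60.4 and 63.4 with adult platelets and 74.8, 79.4 and 86.8 with P7 platelets. All platelet libraries lay above control, by 0.46 ± 0.11 (adjusted p = 0.0125, and 0.0506 without control replicate 3) and 0.70 ± 0.11 (adjusted p = 3.96e-04), and the 2 kinds of platelets overlapped. The Rieske iron-sulphur protein Uqcrfs1 was at 87.2, 88.1 and 87.7 CPM in control, 94.8, 93.1 and 88.1 with adult and 101, 102 and 111 with P7 platelets. The P7 libraries were above both other groups, by 0.25 ± 0.05 against control (adjusted p = 0.00208). Uqcrc2, a core protein of the complex, rose with P7 platelets by 0.19 ± 0.05 (adjusted p = 0.00521), from 123, 123 and 117 CPM in control to 133, 142 and 139 CPM. Cyc1, the cytochrome c1 of the same complex, lies outside the symbol rule and rose with adult (0.22 ± 0.05, adjusted p = 0.0147) and P7 platelets (0.37 ± 0.05, adjusted p = 2.85e-04).

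**Figure D4:**
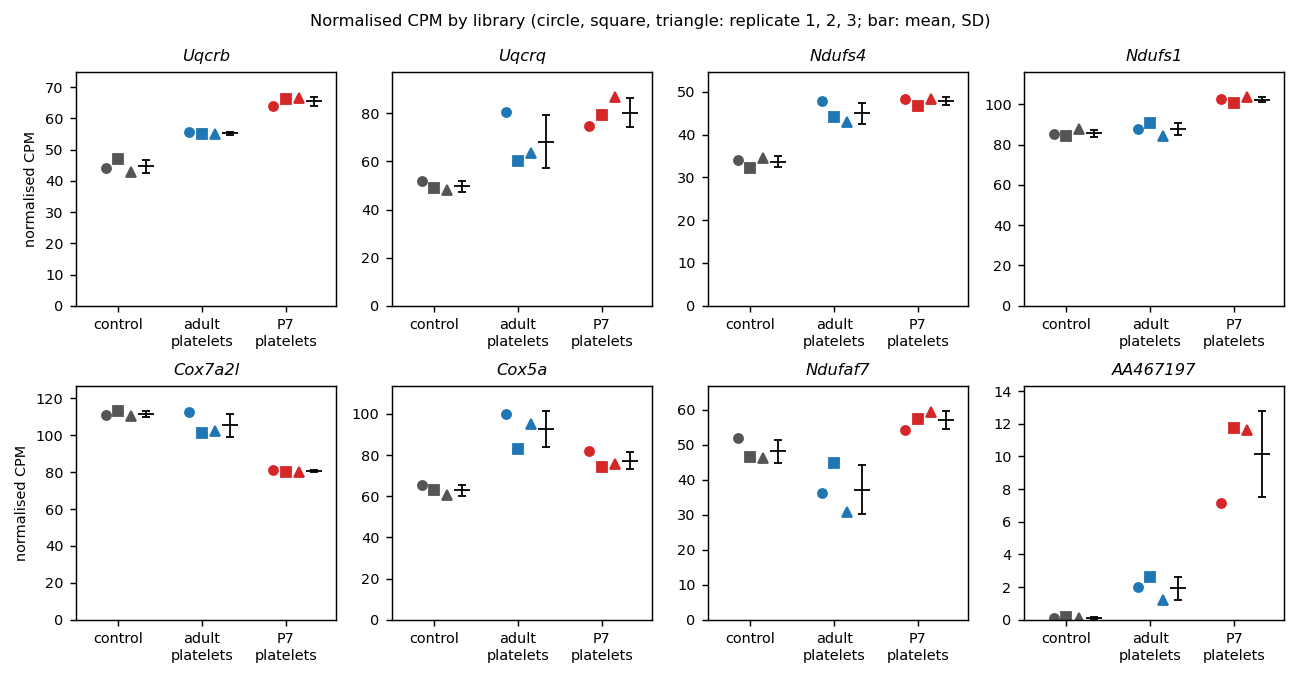
Normalised CPM (y axis, from 0) in each library by group (x axis) for 7 members and AA467197, with symbols for replicates and bars for mean and SD (n = 3), under TMM. Uqcrb rises from group to group without overlap, Cox7a2l lies near 80 CPM in all P7 libraries and above 100 CPM in all others, and Cox5a is highest with adult platelets.

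Complex IV, cytochrome c oxidase, passes electrons to oxygen. Of its 14 members, counting Ndufa4, which is now assigned to this complex, 10 rose and 1 fell with P7 platelets (7 and 1 with upper-quartile factors, 0 and 1 with total counts), and 7 rose and 0 fell with adult platelets. As shares, 71.4% rose and 7.14% fell with P7 platelets, beside 29.9 and 29.3% of all genes tested. Upper-quartile factors made these shares of all genes tested 23.9 and 36.6%, and total counts 16.0 and 49.9%. With adult platelets under TMM, 14.3% of all genes tested rose and 12.0% fell. Cox7a2 and Cox7a2l are paralogs that moved apart. Cox7a2, a subunit of the complex, was at 56.7, 52.7 and 50.8 CPM in control, 73.8, 61.3 and 63.1 with adult platelets and 74.9, 73.5 and 74.0 with P7 platelets. It rose in both, by 0.31 ± 0.07 (adjusted p = 0.0148, and up to 0.0632 without control replicate 2 or 3) and 0.47 ± 0.07 (adjusted p = 4.47e-04). Cox7a2l, a factor known to join complexes III and IV into supercomplexes, was at 111, 113 and 111 CPM in control, 113, 101 and 102 with adult platelets and 81.4, 80.3 and 80.3 with P7 platelets. The P7 libraries lay below all 6 others and differed little among themselves. Cox7a2l fell by 0.47 ± 0.05 on the log2 scale against control (adjusted p = 4.52e-05) and by 0.38 ± 0.05 against adult platelets (adjusted p = 4.78e-04), both under every alternative run, while adult platelets overlapped control (-0.08 ± 0.05, adjusted p = 0.253). Of the windows of its transcript, 15.3% also occur in 1 pseudogene.

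The upstream sequences of these paralogs are shown because the genes moved apart, and those of Cox6a1 and Atp5e, which rose with P7 platelets, because they hold motifs that are known from promoters of respiratory chain genes. Each is the 250 bases before the RefSeq start of the gene, 5′ to 3′ on the strand of the gene, from GRCm38.p6. Capitals mark a match on either strand to the NRF1 motif, which is GCGCA followed by its reverse complement TGCGC, or to the ETS motif CCGGAAG, the letters bound by factors such as GABP, whose reverse complement reads CTTCCGG. Cox7a2 lies on the minus strand and its window is chr9:79759854-79760103, Cox7a2l has chr17:83514334-83514583 on the minus strand, inside the span of the gene in GENCODE M21, Cox6a1 has chr5:115348959-115349208 on the minus strand and Atp5e has chr2:174464102-174464351 on the minus strand.
Cox7a2: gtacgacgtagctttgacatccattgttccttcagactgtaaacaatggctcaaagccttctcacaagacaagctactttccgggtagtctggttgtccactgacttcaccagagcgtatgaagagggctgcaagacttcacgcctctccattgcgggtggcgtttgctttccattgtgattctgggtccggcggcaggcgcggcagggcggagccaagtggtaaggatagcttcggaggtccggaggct
Cox7a2l: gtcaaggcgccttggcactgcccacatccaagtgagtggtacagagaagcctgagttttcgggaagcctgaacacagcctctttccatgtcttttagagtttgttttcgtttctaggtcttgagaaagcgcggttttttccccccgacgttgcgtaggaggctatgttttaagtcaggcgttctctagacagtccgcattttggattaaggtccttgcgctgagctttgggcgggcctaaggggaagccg
Cox6a1: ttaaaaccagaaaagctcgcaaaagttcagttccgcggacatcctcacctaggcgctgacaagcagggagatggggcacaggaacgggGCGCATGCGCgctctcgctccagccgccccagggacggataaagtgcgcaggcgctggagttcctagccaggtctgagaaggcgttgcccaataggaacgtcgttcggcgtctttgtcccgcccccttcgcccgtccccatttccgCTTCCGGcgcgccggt
Atp5e: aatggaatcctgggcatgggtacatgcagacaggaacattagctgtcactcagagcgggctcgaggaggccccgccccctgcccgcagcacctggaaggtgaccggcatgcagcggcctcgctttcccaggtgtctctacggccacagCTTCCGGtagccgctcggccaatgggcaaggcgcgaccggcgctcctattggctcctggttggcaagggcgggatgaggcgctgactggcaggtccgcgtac

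Cox6a1 holds an NRF1 match that starts at base -162 and an ETS match at base -16 from the gene start, Atp5e holds an ETS match at base -102, and neither paralog holds any of the motifs searched. Such a window was at hand for 73 of the 87 members, and the ETS motif was found in 13 of them (17.8%), against 7.05% of 27025 mouse windows of the same length and 14.3% of those of the genes tested. NRF1 was found in 5 (6.85%, against 0.781% of all windows and 1.67% of those of genes tested). The motif AAGATGGCG of YY1 was found in 0 windows (0.607% of all) and TCAAGGTCA of the oestrogen-related receptors in 1 (0.366% of all), that of Atp5g3. With P7 platelets 8 of the 17 members with an NRF1 or ETS match rose and 0 fell (median 0.22), beside 30 that rose and 2 that fell of 56 without (median 0.25). With adult platelets it was 2 and 0 of 17 (median 0.17), beside 14 and 1 of 56 (median 0.15). These are descriptions of letters in a window, without a test.

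Cox5a, a subunit on the matrix side of the complex, was higher with adult than with P7 platelets. It was at 65.7, 62.9 and 60.4 CPM in control, 100.0, 83.1 and 95.1 with adult platelets and 82.1, 74.3 and 75.6 with P7 platelets. None of these groups overlapped. The rise with adult platelets was 0.56 ± 0.07 (adjusted p = 8.67e-04) and was called under every alternative run. With P7 platelets the rise was 0.30 ± 0.07 (adjusted p = 0.00712), and the level was lower than with adult platelets by -0.26 ± 0.07 (adjusted p = 0.0195). Without adult platelet replicate 1 or 3 or P7 replicate 2 or 3 the last call was lost, up to an adjusted p of 0.0764. Cox6a1, a subunit of the broadly expressed kind, was at 84.1, 81.2 and 84.4 CPM in control, 107, 91.3 and 94.3 with adult and 106, 106 and 106 with P7 platelets. Its rises were 0.23 ± 0.06 (adjusted p = 0.0225, and up to 0.0897 without control replicate 2 or 3) and 0.34 ± 0.06 (adjusted p = 9.20e-04), with no overlap with control.

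Cox4i1, the isoform of the largest nuclear-encoded subunit in most tissues, was not called in any comparison, at 262, 241 and 240.0 CPM in control, 307, 248 and 258 with adult and 267, 268 and 265 with P7 platelets. Per kilobase of transcript it was the most abundant member in control, at 324 CPM per kb. Its paralog Cox4i2, known from lung, had 0 to 2 reads in each library. Of the muscle forms, Cox6a2 was at 1.10, 1.26 and 0.836 CPM in control, 1.25, 1.46 and 2.79 with adult and 1.04, 1.73 and 1.19 with P7 platelets, with overlap throughout. Cox7a1 had 10 to 21 reads in each library and Cox8b had 0. The broadly expressed Cox8a rose with P7 platelets by 0.28 ± 0.07 (adjusted p = 0.00909), from 66.9, 68.0 and 63.9 CPM to 83.1, 73.0 and 84.4 CPM.

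Ndufa4 was at 56.5, 50.03 and 49.9 CPM in control, 80.1, 63.6 and 59.5 with adult platelets and 72.7, 72.0 and 65.9 with P7 platelets. It rose with both, by 0.38 ± 0.11 (adjusted p = 0.0293) and 0.43 ± 0.11 (adjusted p = 0.00664), and every platelet library lay above control. The call with adult platelets was lost without control replicate 2 or 3 or adult platelet replicate 1, up to an adjusted p of 0.102. AA467197 (Nmes1), a paralog of Ndufa4 known to take its place in complex IV of activated macrophages, lies outside the symbol rule. It had 3, 7 and 4 reads in control, 64, 91 and 40 with adult platelets and 213, 311 and 362 with P7 platelets. In normalised CPM these were 0.120 ± 0.0567, 1.93 ± 0.711 and 10.2 ± 2.63 (SD, n = 3), and no group overlapped another. AA467197 rose by 3.97 ± 0.44 (adjusted p = 3.29e-04) and 6.37 ± 0.42 (adjusted p = 3.05e-06), and was higher with P7 than with adult platelets by 2.39 ± 0.31 (adjusted p = 4.38e-04), all under every alternative run.

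Complex V, ATP synthase, makes ATP from the proton gradient. Of its 17 members 13 rose and 0 fell with P7 platelets (6 and 1 with upper-quartile factors, 0 and 4 with total counts), and 4 rose and 0 fell with adult platelets. As shares, 76.5% rose and 0% fell with P7 platelets, beside 29.9 and 29.3% of all genes tested. Upper-quartile factors gave 35.3 and 5.88%, beside 23.9 and 36.6%, and total counts 0 and 23.5%, beside 16.0 and 49.9%. Under TMM the adult platelet shares were 23.5 and 0%, beside 14.3 and 12.0%. The catalytic beta subunit Atp5b was at 562, 544 and 540 CPM in control, 656, 608 and 637 with adult platelets and 709, 694 and 712 with P7 platelets. The groups were ordered without overlap, with a rise of 0.21 ± 0.05 with adult platelets (adjusted p = 0.0128, and up to 0.0622 without control replicate 2 or 3) and of 0.36 ± 0.05 with P7 platelets (adjusted p = 1.75e-04). The alpha subunit Atp5a1 was at 597, 588 and 577 CPM in control, 652, 622 and 608 with adult and 667, 674 and 688 with P7 platelets. It rose with P7 platelets by 0.20 ± 0.05 (adjusted p = 0.00471) and was 0.09 ± 0.05 above control with adult platelets (adjusted p = 0.169).

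Atp5pb, a subunit of the peripheral stalk, was at 183, 176 and 166 CPM in control, 216, 202 and 202 with adult and 213, 212 and 215 with P7 platelets. It rose by 0.24 ± 0.05 (adjusted p = 0.0102) and 0.28 ± 0.05 (adjusted p = 0.00125). Atp5g3, which encodes subunit c of the rotating ring, rose by 0.22 ± 0.06 (adjusted p = 0.0186, and up to 0.0747 without control replicate 2 or 3) and 0.33 ± 0.06 (adjusted p = 8.68e-04), and all platelet libraries of both genes lay above control. The other 2 genes for the same subunit c are Atp5g1, which rose with P7 platelets by 0.33 (adjusted p = 0.0176), and Atp5g2, which was not called. Of the windows of the Atp5g2 transcript 86.9% also occur in other transcripts, and for Atp5l and Cox7c it was 63.4 and 50.4%, so the levels of these 3 are uncertain. For 57 of the 87 members no window was shared.

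Set against each other directly, P7 and adult platelets differed in 7 members that were higher and 3 that were lower with P7 platelets, beside 19.7 and 19.8% of all genes tested (39.6% in either direction). The median member differed by 0.064 with TMM, by -0.0074 with upper-quartile factors and by -0.15 with total counts, and the median gene by -0.024, -0.096 and -0.24. The higher ones were Ndufaf7, Uqcrb, Ndufs1, Ndufa2 (0.31 ± 0.09, adjusted p = 0.0190), Uqcrfs1 (0.18 ± 0.05, adjusted p = 0.0183), Uqcrc2 (0.13 ± 0.05, adjusted p = 0.0428) and Atp5b (0.15 ± 0.05, adjusted p = 0.0310), and the lower ones Cox7a2l, Cox5a and Sdhd. For 12 members all P7 libraries lay above all adult ones and for 6 below, against 24.2 and 24.8% of all genes tested. The calls of Uqcrc2 and Atp5b were each lost in 7, that of Ndufa2 in 3 and that of Uqcrfs1 in 2 of the 9 fits that leave out a library, with adjusted p up to 0.157 without P7 replicate 2 for Uqcrc2, 0.0978 without P7 replicate 3 for Atp5b, 0.0609 without P7 replicate 3 for Ndufa2 and 0.0803 without P7 replicate 3 for Uqcrfs1. The count itself turned on the library that stood apart: without adult platelet replicate 1, 29 members were higher with P7 platelets and 1 lower, and without the 3 libraries numbered 1 it was 28 and 2. The first were 33.3 and 1.15%, beside 18.7 and 18.5% of all genes tested, and the second 32.2 and 2.30%, beside 20.6 and 20.0%. Without adult platelet replicate 3, or without P7 replicate 3, 3 were higher and 1 lower (3.45 and 1.15%). Of all genes tested, 16.1 and 15.5% were higher and lower in the former fit and 14.5 and 14.0% in the latter. Without P7 replicate 2, 5 were higher and 1 lower (5.75 and 1.15%, beside 14.8 and 13.9%). Without adult platelet replicate 2, 6 were higher and 5 lower (6.90 and 5.75%, beside 20.4 and 19.3%).

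Levels of different members were set beside each other per kilobase of 1 transcript each, the longest where several principal transcripts ranked equally. Which transcript the monocytes used was not determined, and a level is too low where a shorter one was used. Long transcripts were taken for Atp5g1 (4715 bases, 3.93 CPM per kb in control) and Ndufb2 (4371 bases, 2.74 CPM per kb). In control the median was 96.8 CPM per kb over the complex V members, 83.3 for complex IV, 72.4 for III, 67.9 for II, 37.2 for the core and 36.9 for the accessory subunits of complex I and 5.96 for its assembly factors. Ndufaf6, at 1.47 CPM per kb, was the lowest member. Members with short transcripts had the larger changes: over the 44 members of at most 875 bases the median change was 0.29 with P7 and 0.19 with adult platelets, and over the 43 longer ones 0.17 and 0.09. Of the short ones 29 rose and 1 fell with P7 platelets, and of the long ones 19 rose and 2 fell. Of all genes tested, whatever their length, 29.9% rose and 29.3% fell. The split was not made over all genes tested, so whether it is particular to the members is not known. Across the 87 members the change had a Spearman correlation with transcript length of -0.22 with P7 and -0.27 with adult platelets, over genes that share libraries and are not independent replicates. These lengths rest on the same choice of transcript, and the part of length in the results was not tested.

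Genes that serve the chain but lie outside the symbol rule are given beside the 29.9% of all genes tested that rose and the 29.3% that fell with P7 platelets. Upper-quartile factors made these shares 23.9 and 36.6% and total counts 16.0 and 49.9%, and adult platelets gave 14.3 and 12.0% under TMM. Median changes with P7 platelets were 0.064 for assembly factors, 0.041 for electron carriers and exchange, 0.078 for the TCA cycle and 0.021 for regulators. The 7 tested mitochondrially encoded genes had 0.32, the median member 0.26 and the median gene tested -0.014. Of 39 assembly factors of complexes I to V, 12 rose and 8 fell with P7 platelets (7 and 11 with upper-quartile factors, 2 and 16 with total counts), and 4 rose and 2 fell with adult platelets. The shares with P7 platelets, 30.8 and 20.5%, were near the background for rises and below it for falls. Sdhaf1, which matures the iron-sulphur subunit of complex II, rose with P7 platelets by 0.95 ± 0.12 (adjusted p = 1.23e-04). The copper chaperone Sco1 rose by 0.46 ± 0.06 (adjusted p = 1.31e-04). Among those that fell were Bcs1l, which inserts the Rieske protein into complex III (-0.77 ± 0.12, adjusted p = 4.07e-04), Surf1 of complex IV assembly (-0.67 ± 0.07, adjusted p = 2.57e-05) and the membrane insertase Oxa1l (-0.58 ± 0.07, adjusted p = 7.69e-05).

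Of 23 genes of electron carriers and of ADP and ATP exchange, 11 rose and 5 fell with P7 platelets (4 and 9 with total counts) and 5 rose and 3 fell with adult platelets. The shares with P7 platelets were 47.8 and 21.7%. Atpif1, the inhibitor of ATP hydrolysis by complex V, rose from 38.2, 35.2 and 33.5 CPM in control to 55.1, 39.8 and 48.4 with adult and 72.7, 66.5 and 68.6 with P7 platelets, 3 groups that did not overlap. Its rises were 0.42 ± 0.11 (adjusted p = 0.0189) and 0.96 ± 0.11 (adjusted p = 5.87e-05). Cytochrome c, Cycs, rose by 0.31 ± 0.06 with P7 platelets (adjusted p = 0.00223), and the inner membrane carrier Ucp2 by 0.63 ± 0.07 (adjusted p = 6.04e-05). Coq10a, which binds ubiquinone, fell by 0.88 ± 0.06 on the log2 scale (adjusted p = 5.72e-06) and the ADP/ATP carrier Slc25a4 by 0.58 ± 0.07 (adjusted p = 8.78e-05).

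In the TCA cycle, 8 of 17 genes rose and 4 fell with P7 platelets (2 and 9 with total counts), among them Idh3a (0.72 ± 0.08, adjusted p = 7.81e-05), which rose, and Pdha1 of pyruvate dehydrogenase (-0.22 ± 0.04, adjusted p = 0.00212), which fell. The shares with P7 platelets were 47.1 and 23.5%. With adult platelets 2 rose and 0 fell. Of 15 regulators of the chain that could be tested, 7 rose and 2 fell with P7 platelets (4 and 6 with total counts), and 4 rose and 1 fell with adult platelets. The shares with P7 platelets were 46.7 and 13.3%. Those that rose with P7 platelets included Gabpb1 (0.74 ± 0.08, adjusted p = 3.84e-05) and Gabpa (0.31 ± 0.05, adjusted p = 6.45e-04), which encode both parts of the ETS factor GABP, Nrf1 (0.39 ± 0.05, adjusted p = 1.25e-04), the coactivator Pprc1 (0.67 ± 0.07, adjusted p = 3.74e-05) and the nuclear receptor Esrra (0.64 ± 0.08, adjusted p = 1.62e-04). The mitochondrial helicase Twnk fell by 0.83 ± 0.09 on the log2 scale (adjusted p = 6.03e-05).

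Of the 13 protein-coding genes of mitochondrial DNA, 7 had enough reads to be tested in these poly(A) libraries. With P7 platelets 1 of the 7, mt-Nd6, rose by 1.42 ± 0.33 (adjusted p = 0.00491), from 3.00, 3.18 and 2.96 CPM in control to 4.55, 10.3 and 9.54 CPM. With adult platelets none was called. mt-Nd1, mt-Nd4 and mt-Cytb were 0.28, 0.37 and 0.37 above control with P7 platelets, with adjusted p of 0.0838, 0.0762 and 0.0785. mt-Rnr2, a ribosomal RNA of mitochondrial DNA, rose from 784 ± 92.2 CPM in control (mean ± SD, n = 3) to 5913 ± 521 with adult and 7479 ± 1188 with P7 platelets, by 2.92 ± 0.13 (adjusted p = 2.61e-06) and 3.25 ± 0.14 (adjusted p = 4.60e-07). mt-Nd6 is the gene on the other strand of mitochondrial DNA, and the strand setting of the counting is not given in the sources used here, so reads of its antisense side cannot be told apart from its own.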

How the data were processed

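Per the labels' protocols, Trizol RNA went through DNase treatment, oligo-dT selection (100 ng) and a stranded library kit, and reads were single ends of 75 nt. Salmon 1.3.0, featureCounts (Subread 2.0.1), STAR 2.7.6a and fastp 0.20.1 appear in the submitters' processing notes, with no role. Which build, annotation and strand option were used is not given in the sources used here. The authors deposited raw counts of reads per gene symbol in 9 libraries, not normalised.

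One edgeR 4.0.16 quasi-likelihood model (R 4.3.3) was fitted to all 9 libraries with TMM after filterByExpr by group (minimum count 10), with 6 residual degrees of freedom and a common dispersion of 0.0130. P-values were adjusted over 13707 genes within each of 3 comparisons (Benjamini-Hochberg, call below 0.05). The method was also run on simulated data with few changed genes, as many up as down. That run does not bear on the choice of scaling. A member was named in full if among the 3 smallest p of its class with P7 or the 2 smallest with adult platelets, among the 6 largest or 6 smallest called changes, or on a list of symbols. The further members, and genes of the lists outside the symbol rule, were singled out after their values were seen. The members and gene lists were chosen with earlier results of these data known. Total counts as scaling, and leaving out the 3 libraries numbered 1, were added after seeing the data. The other alternatives were DESeq2 size factors, upper-quartile factors, no filter and a mean of at least 50 counts. Limma-voom (limma 3.58.1), the Wald test of DESeq2 1.42.0, a replicate block and only the compared groups were also used. The platelet and erythroid markers and all genes of mitochondrial DNA were removed in another run, and each library was left out in turn. Replicate numbers were shared between groups, but nothing says what they mean.

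Transcript lengths and shared 75-base windows come from GENCODE M21 (GRCm38, principal transcript, the longest where several ranked equally), which named 85 members, with 2 more matched by synonym. Upstream windows come from RefSeq (GRCm38.p6), whose table matched 73 members. The scan covered 250 bases on both strands. No library was left out of the main comparisons. The values of 1 member are not reported here; it stays in the counts and sums.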

Additional observations from a re-analysis of the deposited data

How the results depend on the processing

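Counts of members that rose or fell depended on the scaling and on single libraries. With total counts, chosen after seeing the data, 6 members rose with adult platelets, 3 rose and 22 fell with P7 platelets, and 1 was higher and 27 were lower with P7 than with adult platelets. Of all genes tested, 49.9% fell with P7 platelets under it and 43.5% were lower with P7 than with adult platelets. Of the named changes called under TMM or under total counts, the following turned negative, for P7 platelets against control: Ndufs1 -0.021, Ndufs8 -0.21, Ndufv2 -0.18, Sdha -0.13, Sdhb -0.11, Uqcrfs1 -0.023, Uqcrc2 -0.085, Cox8a -0.0015 and Atp5a1 -0.075, and for P7 against adult platelets: Ndufv2 -0.19, Sdha -0.17, Uqcrfs1 -0.029, Uqcrc2 -0.079, Atp5b -0.061 and Atp5pb -0.17. With upper-quartile factors 30 rose and 10 fell with P7 platelets, and 3 were higher and 8 lower than with adult platelets. Among all genes tested it was 23.9 and 36.6% against control and 15.4 and 25.9% against adult platelets. In fits to only the 2 groups compared, which have fewer libraries, 13 rose and 0 fell with adult platelets, 5 fell with P7 platelets and 4 were higher with P7 than with adult platelets. Among all genes tested in these fits, 11.8% rose and 10.6% fell with adult platelets and 31.6% fell with P7 platelets. The share higher with P7 than with adult platelets was 17.3%. With no filter on low counts 4 were higher in that comparison (4.60%, beside 9.14% of all genes tested). Without the 3 libraries numbered 1, 2 fell with adult platelets and 28 were higher with P7 than with adult platelets, beside 11.4 and 20.6% of all genes tested. Leaving out 1 library at a time gave 5 to 28 that rose and 0 to 2 that fell with adult platelets, 36 to 53 and 2 to 5 with P7 platelets, and 3 to 29 higher and 1 to 5 lower with P7 than with adult platelets. Over the same fits 7.99 to 14.4% of all genes tested rose and 6.58 to 12.6% fell with adult platelets. The P7 shares against control were 26.1 to 31.2% and 24.8 to 29.8%. Between both kinds of platelets 14.5 to 20.4% were higher and 13.9 to 19.3% lower with P7 platelets. Except where the construction is named, the cause was not tested. With a replicate block, 28 rose and 1 fell with adult platelets, 52 rose and 4 fell with P7 platelets, and 9 were higher and 2 lower between them. Among all genes tested the block gave 16.4 and 14.5%, 31.6 and 30.9%, and 22.0 and 21.5% in the same order. The labels do not say what the numbers mean. Of 9 pairs of libraries with the same number, 7 had deviations correlated above 0.1, those of number 1 at 0.557, 0.576 and 0.486, and the lowest value was -0.0813. Same-number pairs of numbers 2 and 3 reached at most 0.346. Pairs with different numbers reached more, 0.428 for adult platelet replicate 2 with P7 replicate 3 and 0.424 for control replicate 3 with adult platelet replicate 2. DESeq2 size factors, the DESeq2 Wald test, limma-voom and the stricter filter left all these counts within 1.5 times. Of the named calls, 4 of 18 held under every alternative for adult platelets, 7 of 30 for P7 platelets and 4 of 12 between both. These calls include AA467197 and Acod1, and the named genes were in part picked for small p in these data. At 3 libraries a group, a difference no larger than its SE was not detectable, and differences well above the SE could be missed as well. With P7 platelets against control, Ndufs7 at -0.23 (adjusted p = 0.0824) and Ndufaf7 at 0.24 (adjusted p = 0.102) were not called.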
